A study of Mus musculus with 2 samples.

Results

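Pcp4-dominant neurons were the cells of 2 inner ear libraries that carried neuron genes and more Pcp4 than Calb2 RNA. A cell was taken when it had at least 300 detected genes, at most 20% mitochondrial UMIs (molecular tags, so that each counts 1 captured RNA molecule), a UMI in at least 5 of 9 neuron genes (Nefl, Nefm, Nefh, Snap25, Tubb3, Stmn2, Scn1a, Rbfox3 and Map2), and more UMIs of Pcp4 than of Calb2. The rule found 265 cells among 2567 cells that met the same neuron gate, and among 42625 cells that passed the cell filter. Of the other gate cells, 1566 had more Calb2 than Pcp4 (Calb2-dominant) and 736 had equal counts, nearly all with neither RNA (291 of 292 and 443 of 444 in the 2 libraries).

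The tissue was the sensory epithelium of the cochlea. The mice (CBA/CaJ, 4 to 6 weeks old) were all exposed to noise of 105 dB between 1 and 20 kHz for 2 h and sampled 2 days later. In the AAV-Isl1 plus noise group, 5 ears had first received an adeno-associated virus with the Isl1 gene. In the noise-only group, the 5 opposite, untreated ears of the same mice were used, so no ear was free of noise and none had a virus without Isl1. The ears of a group were pooled into 1 library, and neither the promoter of the vector nor the cells it entered are stated in the sources used here.

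Inner ear neurons are bipolar cells whose peripheral fibres contact hair cells and whose central fibres run to the brainstem. They sit in the spiral ganglion of the cochlea and in the vestibular ganglion, and differ in calcium-binding proteins, ion channels and transcription factors. Pcp4 encodes a small protein that binds calmodulin and alters its exchange of calcium, and Calb2 encodes calretinin, a calcium buffer used to tell classes of inner ear neurons apart.

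The sequences upstream of Pcp4 and of 2 genes named as higher below are shown because the cells were picked on Pcp4 RNA. They are the 250 bases before the RefSeq start (RefSeq, GRCm38.p6), 5′ to 3′ on the gene's strand, for Pcp4 and the named higher genes Cabp7 and Unc13c, whose windows hold no annotated exon. Pcp4 lies on the plus strand, with its window at chr16:96467356-96467605. Cabp7 lies on the minus strand, with its window at chr11:4747180-4747429. Unc13c lies on the minus strand, with its window at chr9:73969038-73969287. Capitals mark matches to 4 motifs of 6 bases searched on both strands, the homeodomain core TAATTA, the E-boxes CAGATG and CAGCTG, and the TATA box TATAAA.
Pcp4: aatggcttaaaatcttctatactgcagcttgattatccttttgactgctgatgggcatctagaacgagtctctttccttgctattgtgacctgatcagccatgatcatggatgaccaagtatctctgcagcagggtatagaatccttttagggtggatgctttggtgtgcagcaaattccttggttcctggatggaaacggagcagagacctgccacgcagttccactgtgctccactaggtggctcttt
Cabp7: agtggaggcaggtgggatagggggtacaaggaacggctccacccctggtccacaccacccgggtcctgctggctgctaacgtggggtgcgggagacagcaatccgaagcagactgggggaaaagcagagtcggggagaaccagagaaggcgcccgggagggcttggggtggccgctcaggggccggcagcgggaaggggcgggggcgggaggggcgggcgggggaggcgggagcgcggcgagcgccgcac
Unc13c: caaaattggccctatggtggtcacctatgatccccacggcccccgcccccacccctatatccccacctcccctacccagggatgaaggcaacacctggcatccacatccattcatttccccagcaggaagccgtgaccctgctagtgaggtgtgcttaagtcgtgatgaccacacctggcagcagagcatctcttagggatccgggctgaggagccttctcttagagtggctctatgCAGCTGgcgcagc
The Pcp4 and Cabp7 windows hold none of the 4 motifs, and Unc13c holds CAGCTG 13 bases upstream of its start. Of the 12 genes picked as higher, 8 have a window in the table, of which 1 holds TAATTA, 2 CAGATG, 1 CAGCTG and 0 TATAAA. Among 32851 promoter windows of the same length, 4.84% hold TAATTA, 14.4% CAGATG, 13.0% CAGCTG and 12.4% TATAAA. The Pcp4 window has 46.8% G or C and 3 CG pairs, against 72.4% and 21 in Cabp7, 58.8% and 6 in Unc13c, and a median of 52.4% G or C over all windows. These matches describe letters and do not show binding.

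The noise-only library held 59 Pcp4-dominant cells among 919 gate cells, 6.42% (exact Clopper-Pearson 95% interval 4.92 to 8.20). The AAV-Isl1 library held 206 among 1648, 12.5% (10.9 to 14.2). As a share of all filtered cells this was 0.296% and 0.909%. With 1 library per group no test between the groups was possible, the intervals cover counting error only, and treatment, dissection and loading cannot be told apart. The files list 45277 barcodes, far more than the about 1600 cells loaded per library, so a barcode may not be 1 whole cell. The libraries share 145 barcodes, 0 of them among the Pcp4-dominant cells.

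Pcp4 counts in most of these cells were high rather than marginal. The median was 44 UMIs per cell in the noise-only library (quartiles 12.5 and 142.5, highest 322) and 35.5 in the AAV-Isl1 library (10 and 94.75, highest 367). At least 10 Pcp4 UMIs were seen in 45 of 59 and 155 of 206 cells, while a lead of a single UMI decided 5 and 17 cells. Calb2 was at 0 in 53 of 59 and 188 of 206 cells. Summed over cells, Pcp4 stood at 6169 and 7144 CPM (UMIs of the gene over all UMIs of the summed cells, scaled to counts per 1e6) in the noise-only and the AAV-Isl1 library. It stood at 6.14 and 44.9 CPM in Calb2-dominant cells, where 1 AAV-Isl1 cell alone had 202 Pcp4 UMIs, and at 32.7 and 49.2 CPM outside the gate. These levels follow from the rule and carry no test. Just outside the gate, 2 and 11 cells had 4 neuron genes and more Pcp4 than Calb2, with a median of 6.5 and 7 Pcp4 UMIs.

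**Figure D1:**
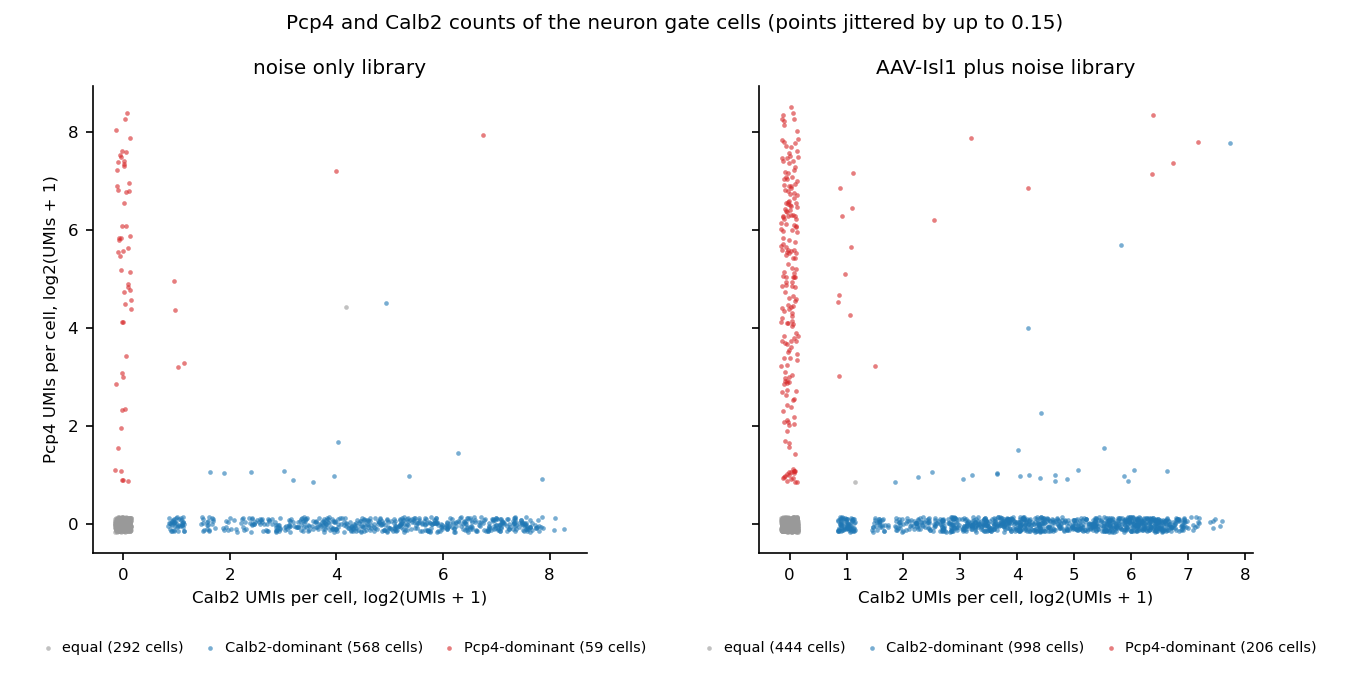
Each point is 1 gate cell, with its Calb2 UMIs on the horizontal and its Pcp4 UMIs on the vertical axis, both as log2(UMIs + 1) with a small jitter, in the noise-only (left) and AAV-Isl1 plus noise (right) libraries. Red cells are Pcp4-dominant (59 and 206), blue Calb2-dominant (568 and 998) and grey equal (292 and 444), and most cells lie along 1 of the axes.

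The neuron label held in the other neuron genes. Uchl1, a neuronal ubiquitin hydrolase, stood at 785 and 816 CPM against 13.3 and 17.5 CPM outside the gate. The 30 general neuron genes not used by the rule summed to 19085 and 19197 CPM, against 15379 and 14976 in the other gate cells and 1042 and 1001 outside the gate. The cells were also deeper than the other gate cells, with a median of 12747 and 9477 UMIs against 9984.5 and 6392. The gate genes themselves were not equal. Rbfox3, which encodes the nuclear protein NeuN, was seen in 74.6% and 59.2% of Pcp4-dominant cells, against 43.7% and 29.9% of other gate cells. Map2, a dendritic microtubule protein, was seen in 84.7% and 70.9%, against 95.8% and 94.8%. Its level was 222 and 180 CPM against 776 and 750 in other gate cells. Glial RNA was present as in other gate cells. The myelinating Schwann cell markers, all detected, summed to 2438 and 2628 CPM against 2871 and 3189.9 in other gate cells and 9806 and 8695 outside the gate.

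When all gate cells were clustered without Pcp4 and Calb2, 223 of the 265 Pcp4-dominant cells (84.2%; 47 and 176 in the 2 libraries) fell into 1 of 14 clusters. That cluster of 240 cells held 6 Calb2-dominant and 11 equal cells besides, and Tac1, Syt1, Kcnb2, Shisa8, Pcdh9, Kcnc2 and Tcap led it after Pcp4. The order of Pcp4 and Calb2 thus went with many other genes. The remaining 42 cells (12 and 30) were spread over other clusters, including 11 in a cluster led by the myelin gene Ncmap and 9 in one led by Lypd1. They were shallower, with a median of 8532 and 5596.5 UMIs. Their median was 7.5 and 4 Pcp4 UMIs, and a lead of a single UMI decided 4 of the 12 and 11 of the 30.

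Pcp4-dominant cells were then compared with all other gate cells of the same library, to see which genes set them apart. Genes other than Pcp4, Calb2 and the 9 gate genes were not used by the rule, but were counted in the cells that the rule divided, so that RNAs varying along with Pcp4 differ by construction. Counts were summed per library and class, and edgeR's quasi-likelihood test with library as a block was fitted to the 4 sums, with Benjamini-Hochberg adjustment over 12440 genes (adjusted p under 0.05 is a call). The replicates are 2 libraries from opposite ears of the same mice, which differ in treatment, so p measures how alike the class difference was in these 2 libraries. In Pcp4-dominant cells 1500 genes were higher (12.1% of those tested) and 1086 were lower (8.73%), with a median over all genes of -0.02 on the log2 scale. The edgeR counts of list genes below are to be read beside these 2 shares. DESeq2 called 639 and 277, so that 69.8% of its calls were higher against 58.0% with edgeR, and all 916 were among the edgeR calls in the same direction. Unless stated otherwise, log2 differences below are from the edgeR fit against all other gate cells, equal cells included. The CPM beside them are in places those of Calb2-dominant cells alone, so the 2 need not match.

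The neuropeptide gene Tac1 had the largest fold change among the named genes that were higher. Tac1, the precursor of substance P and neurokinin A (ENSMUSG00000061762; GRCm38 chromosome 6, 7554879 to 7565834, plus strand), stood at 855 CPM in noise-only and 544 CPM in AAV-Isl1 Pcp4-dominant cells. It had 0 UMIs in the 568 and 998 Calb2-dominant cells, and 6.06 and 2.40 CPM in cells with equal counts. The summed level was higher in both libraries, although many Pcp4-dominant cells had 0 Tac1 UMIs, and the fitted log2 difference was 9.18 ± 0.13 (SE; edgeR adjusted p = 5.3e-20). Other gate cells held only 15 and 6 Tac1 UMIs. The counting intervals (exact conditional binomial) of the ratio were wide, 281 to 838 in noise-only and 378 to 2256 in AAV-Isl1. The SE after ± here and below can be smaller than counting error, and does not give the precision of a difference. Tac1 was a gene of part of the class, seen in 32 of 59 (54.2%) and 102 of 206 cells (49.5%). After thinning each cell to 1000 UMIs it was seen in 40.7% (28.1 to 54.3) and 29.8% (23.6 to 36.5), against 0 of 712 and 0 of 615 endothelial cells, which should lack it (up to 0.421% and 0.488% with 3 counts allowed). Those endothelial cells were picked to have no UMI of the 9 neuron genes, so they cannot measure free neuronal RNA.

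Fxyd7, which encodes a regulator of the sodium pump, had 200 and 165 CPM against 0.367 and 0.439 in other gate cells (log2 difference 8.77 ± 0.21). Those other gate cells held only 3 and 4 Fxyd7 UMIs, and the counting intervals of its ratio were 183 to 2673 and 146 to 1389. Cabp7, a calcium-binding relative of calmodulin, had 56.9 and 75.6 CPM against 0.611 and 0.439. Unc13c, a vesicle priming protein, had 99.3 and 82.8 CPM against 0.978 and 1.21. Each of these summed levels was higher in both libraries, as was required for a named gene. Fxyd7 was seen in only 18 of 59 and 48 of 206 Pcp4-dominant cells, Cabp7 in 16 and 70, and Unc13c in 30 and 89. Syt1, the calcium sensor of fast transmitter release, stood at 475 and 424 CPM in Pcp4-dominant cells and at only 1.93 and 6.05 CPM in Calb2-dominant cells. In equal cells Syt1 stood at 6.46 and 43.2 CPM (log2 difference from all other gate cells 5.52 ± 0.24). It was seen in 44 of 59 and 161 of 206 Pcp4-dominant cells, against 4 of 568 and 20 of 998 Calb2-dominant cells. A further 6 named higher genes were Rprm, a p53-induced cell cycle inhibitor, the secreted protein gene Tafa2, the heparan sulfate sulfotransferases Hs3st2 and Ndst4, the ubiquitin ligase Pdzrn3 and the corticotropin releasing hormone receptor Crhr1. Their log2 differences lay between 5.70 (Ndst4) and 6.37 (Rprm). Tafa2 had 57 UMIs in noise-only Pcp4-dominant cells and 0 in the other gate cells, and in the AAV-Isl1 library its ratio was 46.1 (28.7 to 78.4).

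Genes that were lower included several abundant ones of the remaining neurons. Cd24a, a surface glycoprotein of neurons and blood cells, had 42.4 and 32.9 CPM against 774 and 802 in other gate cells (log2 difference -4.41 ± 0.11; edgeR adjusted p = 5.3e-16). Aldh1a3, an enzyme of retinoic acid synthesis, had 63.6 and 48.9 CPM against 512 and 465 (-3.11 ± 0.10). Ntng1, a netrin-related membrane protein, had 34.4 and 21.1 CPM against 303 and 244 (-3.33 ± 0.13). For all 3 the summed levels were lower in both libraries, as was required for a named gene. Prox1, a homeodomain transcription factor, was seen in 4 of 59 and 8 of 206 Pcp4-dominant cells, at 11.9 and 4.12 CPM against 102 and 102 (-3.95 ± 0.23), and 6 of its 9 noise-only UMIs lay in 1 cell. Neb, which encodes the thin filament protein nebulin, had 0 and 3 UMIs in Pcp4-dominant cells, and in the AAV-Isl1 library the ratio was 0.0166 (exact conditional binomial 95% interval 0.00341 to 0.0486). The secreted synaptic protein gene C1ql3, the G-protein regulator Rgs6, the GATA cofactor Zfpm2, the semaphorin Sema6a, Jsrp1, Ppp1r27 and Ccdc155 were the other named lower genes, with log2 differences between -4.39 (C1ql3) and -3.44 (Jsrp1).

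**Figure D2:**
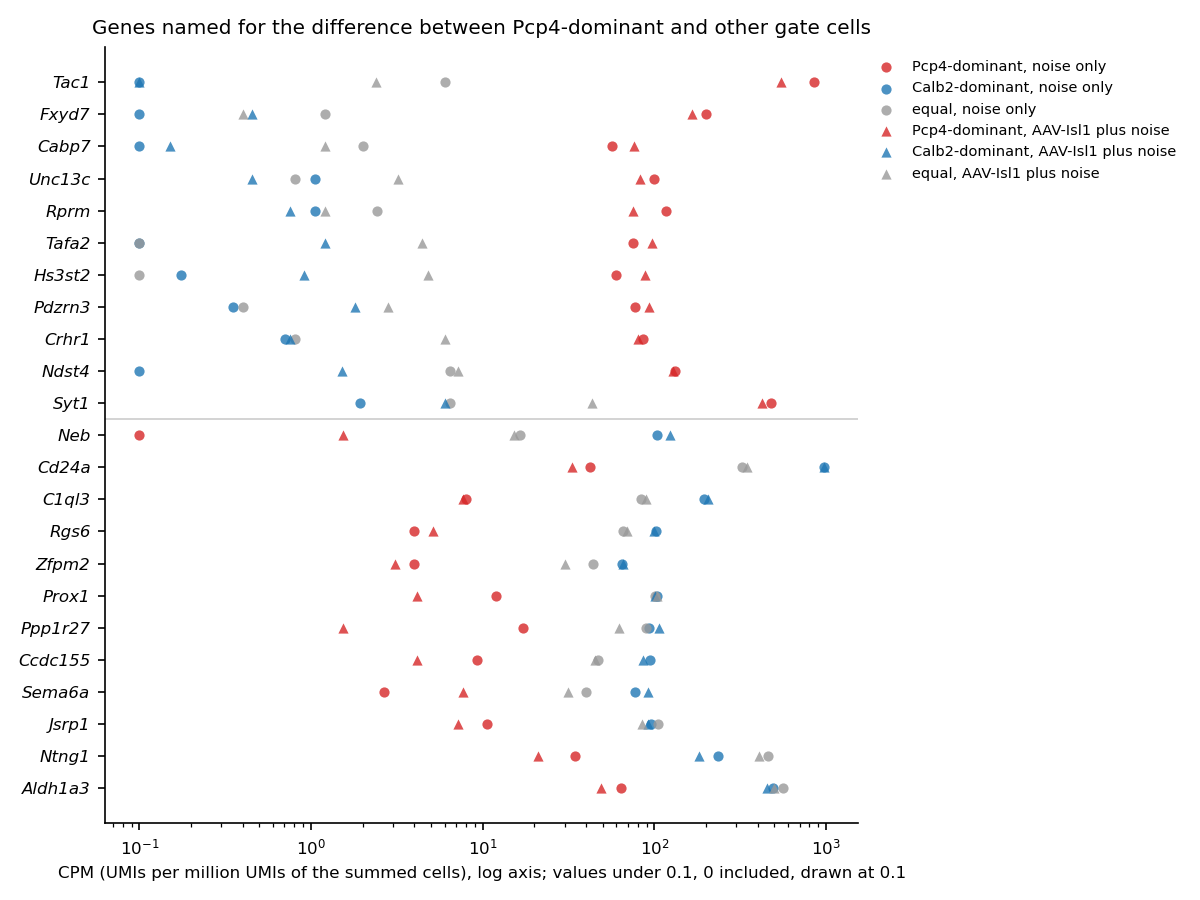
Level of each named gene as CPM of the summed cells on a log axis, in Pcp4-dominant (red), Calb2-dominant (blue) and equal (grey) cells, with circles for noise only and triangles for AAV-Isl1 plus noise and values under 0.1 drawn at 0.1. The red symbols lie to the right of all others for the upper 11 genes (Tac1 at 855 and 544) and to the left for the lower 12 (Cd24a at 42.4 and 32.9).

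Transcription factors were divided. Of 40 tested factors of sensory ganglia, 12 were higher and 13 lower, beside 12.1% and 8.73% of all genes. DESeq2 also called 9 and 7 of these (list median -0.04). Isl1 (ENSMUSG00000042258; GRCm38 chromosome 13, 116298281 to 116309689, minus strand), the LIM homeodomain factor that was delivered, stood at 76.8 and 70.0 CPM in Pcp4-dominant cells. Calb2-dominant cells had 331 and 300 CPM and equal cells 287 and 283. Isl1 was thus 4.05-fold lower in Pcp4-dominant than in other gate cells (log2 difference -2.02 ± 0.10; edgeR adjusted p = 5.9e-12), in both libraries. Gata3, a zinc finger factor needed by auditory neurons, had 42.4 and 12.3 CPM against 43.8 and 52.2 in other gate cells. It was lower in the AAV-Isl1 library alone (ratio 0.236, 0.15 to 0.356; noise only 0.968, 0.652 to 1.39), and its edgeR call (adjusted p = 0.0055) was lost with DESeq2 (adjusted p = 0.90).

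Tlx3, a homeobox factor of sensory neurons, stood at 29.1 and 30.4 CPM, with 0 and 1 UMI in Calb2-dominant cells (log2 difference 6.15 ± 0.53), and was seen in 15 of 59 and 43 of 206 Pcp4-dominant cells. Onecut1 had 43.7 and 30.4 CPM against 0.175 and 0.605 in Calb2-dominant cells (5.79 ± 0.47). Pou4f1, a POU homeodomain factor of sensory neurons, had 134 and 103 CPM, above Calb2-dominant cells (16.8 and 15.0) but close to equal cells (105 and 99.3). Against equal cells alone its log2 difference was 0.24 and passed no threshold (edgeR adjusted p = 0.14). Rxrg, a retinoid receptor marking a subclass of type I spiral ganglion neurons, had 0 UMIs in all Pcp4-dominant cells and was at least 15.6-fold lower (3 counts allowed over both libraries), but DESeq2 did not call it (adjusted p = 0.59).

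Genes that mark spiral ganglion subtypes did not move as 1 group. Of 9 tested type I subtype genes, 3 were higher (Calb1, Lypd1 and Pou4f1) and 3 lower (Rxrg, Pcdh20 and Runx1), while DESeq2 kept the 3 higher and 1 of the lower calls (Runx1). Over all genes, 12.1% were called higher and 8.73% lower with edgeR. Pcdh20 turned from -1.60 to 0.46 against equal cells alone (edgeR adjusted p = 0.60). Lypd1, a GPI-anchored receptor modulator, had 2144 and 1442 CPM, between Calb2-dominant (533 and 372) and equal cells (3880.1 and 3306), so that its direction turned from 0.43 to -0.96 when equal cells alone were compared. Calb1, the buffer calbindin, had 76.8 and 95.2 CPM from 4 and 20 cells, and its log2 difference of 0.91 became -0.04 when Pcp4 had to lead by 2 to 1 with at least 3 UMIs. Prph, the filament peripherin that marks type II neurons, had 11.9 and 0.514 CPM, against 9.17 and 7.13 in other gate cells, and was not called (edgeR adjusted p = 0.30). Of the 5 tested type II genes, 2 were higher with edgeR and DESeq2 (the ETS factor gene Etv4 and the neurotrophin receptor gene Ngfr) and 0 were lower with either (0 at unadjusted p under 0.05 with edgeR), with a list median of 0.77; against equal cells alone Prph was lower (-2.51).

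The ion channel genes differed in many members. Of 40 potassium channel genes, 18 were higher and 12 lower (12 and 6 also by DESeq2), beside 12.1% and 8.73% of all genes. Their median log2 difference was 0.45, and 0.20 in thinned cells and 0.21 against equal cells alone. Kcnb2, a delayed rectifier subunit, had 384 and 419 CPM against 1.75 and 6.65 in Calb2-dominant cells. Kcnc2, a Kv3 subunit, had 263 and 233 CPM against 0.877 and 4.23 in Calb2-dominant cells (log2 difference from all other gate cells 4.78 ± 0.19). Kcna1 and Kcnk1, a Kv1 and a leak channel subunit, were lower (-0.69 and -1.57). Of 11 sodium channel genes, 6 were higher and 1 lower, led by the channel-binding Fgf13 (30.5 and 46.3 CPM against 0.351 and 0.605 in Calb2-dominant cells), and Scn4b was the lower one.

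Calcium and calmodulin genes were called higher in 20 and lower in 2 of 36 tested (13 and 1 also by DESeq2), beside 12.1% and 8.73% of all genes, with a list median of 0.42, which fell to 0.18 in cells thinned to 1000 UMIs and to 0.21 against equal cells alone. Pcp4l1, the relative of Pcp4, had 169 and 111 CPM against 13.2 and 10.6 in Calb2-dominant cells (2.84 ± 0.13). Gap43, a growth-associated protein that binds calmodulin, had 50.3 and 25.2 CPM against 3.16 and 4.08. Pvalb, the buffer parvalbumin, had 5041 and 5293 CPM against 3439.7 and 3350.3 in Calb2-dominant cells (0.62 ± 0.06), and S100a10 was lower (-0.53), but not against equal cells alone (0.06; edgeR adjusted p = 0.65).

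Synaptic and receptor genes were also shifted. Of 31 synaptic vesicle genes, 16 were higher and 6 lower (13 and 4 also by DESeq2), beside 12.1% and 8.73% of all genes. The vesicular glutamate transporters moved apart: Slc17a6 (VGLUT2) had 302 and 321 CPM against 80.5 and 66.4 in Calb2-dominant cells, and Slc17a7 (VGLUT1) had 95.3 and 101 against 366 and 347 (log2 differences 1.44 ± 0.08 and -1.72 ± 0.09). Vamp2, a vesicle SNARE, was higher (297 and 313 CPM against 42.8 and 52.4), and its relative Vamp1 was lower (356 and 372 against 490 and 446). Of 11 receptors for GABA, glycine, acetylcholine and other transmitters, 8 were higher and 0 lower with edgeR (1 lower at unadjusted p under 0.05, Drd1), while DESeq2 called 6 of the 8 and 0 lower. They included the nicotinic subunits Chrna6 (23.8 and 27.3 CPM, against 0 and 0.605 in Calb2-dominant cells) and Chrnb3 (41.0 and 46.3, against 0.351 and 0.756). Of 20 neuropeptide and secretory granule genes, 10 were higher and 6 lower. Vip, vasoactive intestinal peptide, had 38.4 and 30.4 CPM against 0.351 and 0.151 in Calb2-dominant cells, and Chgb, a granule core protein, was lower at 381 and 363 against 958 and 866. Of 13 neurotrophic genes, 5 were higher, among them the receptor genes Ntrk2 (TrkB; 404 and 378 CPM against 165 and 151), Ntrk3 (TrkC; 257 and 247 against 179 and 165) and Lifr, and 2 were lower (Cntfr and Il6st, the latter not called by DESeq2).

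Genes of stress and injury were called lower more often than higher with edgeR, while over all genes 12.1% were called higher and 8.73% lower. Of 20 immediate early genes, 0 were higher and 11 lower with edgeR (0 higher at unadjusted p under 0.05; 4 of the 11 with DESeq2, which called 0 higher), with a median of -0.44. When clusters led by genes of other cell types were left out, a choice made after seeing the data, that median turned to 0.37. Fos, Fosb, Junb and Egr1 turned from lower to higher. This setting left out any cluster with such a gene among its leading genes, including a cluster of 463 cells headed by Lypd1. It kept 50 of 59 and 179 of 206 Pcp4-dominant cells, but only 247 of 860 and 391 of 1442 other gate cells. The comparison class thus changed as well. Jun (192 and 225 CPM against 360 and 389 in Calb2-dominant cells) and Atf3 (42.4 and 42.7 against 82.4 and 119) stayed lower there (edgeR log2 differences -0.66 and -0.99). Of 15 axon injury genes, 3 were higher and 8 lower with edgeR. Of 19 p53 and cell death genes, 0 were higher and 6 lower with edgeR (2 also by DESeq2, and 0 higher at unadjusted p under 0.05 and with DESeq2). Without clusters led by genes of other cell types, 3 higher and 7 lower axon injury calls and 3 of the 6 p53 list calls were kept. Cdkn1a of the p53 list turned there from -0.70 to 0.08 (edgeR adjusted p = 0.84). Gadd45a, a DNA damage response gene, had 7.94 and 14.9 CPM against 76.1 and 94.8 in Calb2-dominant cells and 18.6 and 20.0 in equal cells. Against equal cells alone its log2 difference fell from -2.39 to -0.57 and was not called (edgeR adjusted p = 0.18). Of 52 nuclear-encoded oxidative phosphorylation genes, 18 were higher and 3 lower, by a median of 0.15. In other gate cells the markers of macrophages summed to 31.2 and 170 CPM, against 19.9 and 33.4 in Pcp4-dominant cells, and those of fibrocytes to 221 and 358 against 221 and 169. Their part in these differences was not tested.

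Hair cell markers were present at low level. Tmc1, a transduction channel gene, had 34.4 and 27.8 CPM against 0.175 and 0.453 in Calb2-dominant cells (log2 difference 5.33 ± 0.44), from 26 UMIs in 15 cells and 54 UMIs in 39 cells. Pou4f3, the hair cell POU factor, had 6.62 and 5.66 CPM, from 5 and 11 UMIs. Of the 6 tested hair cell markers, 3 were higher and 1 (Espn) was lower, beside 12.1% and 8.73% of all genes.

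**Figure D3:**
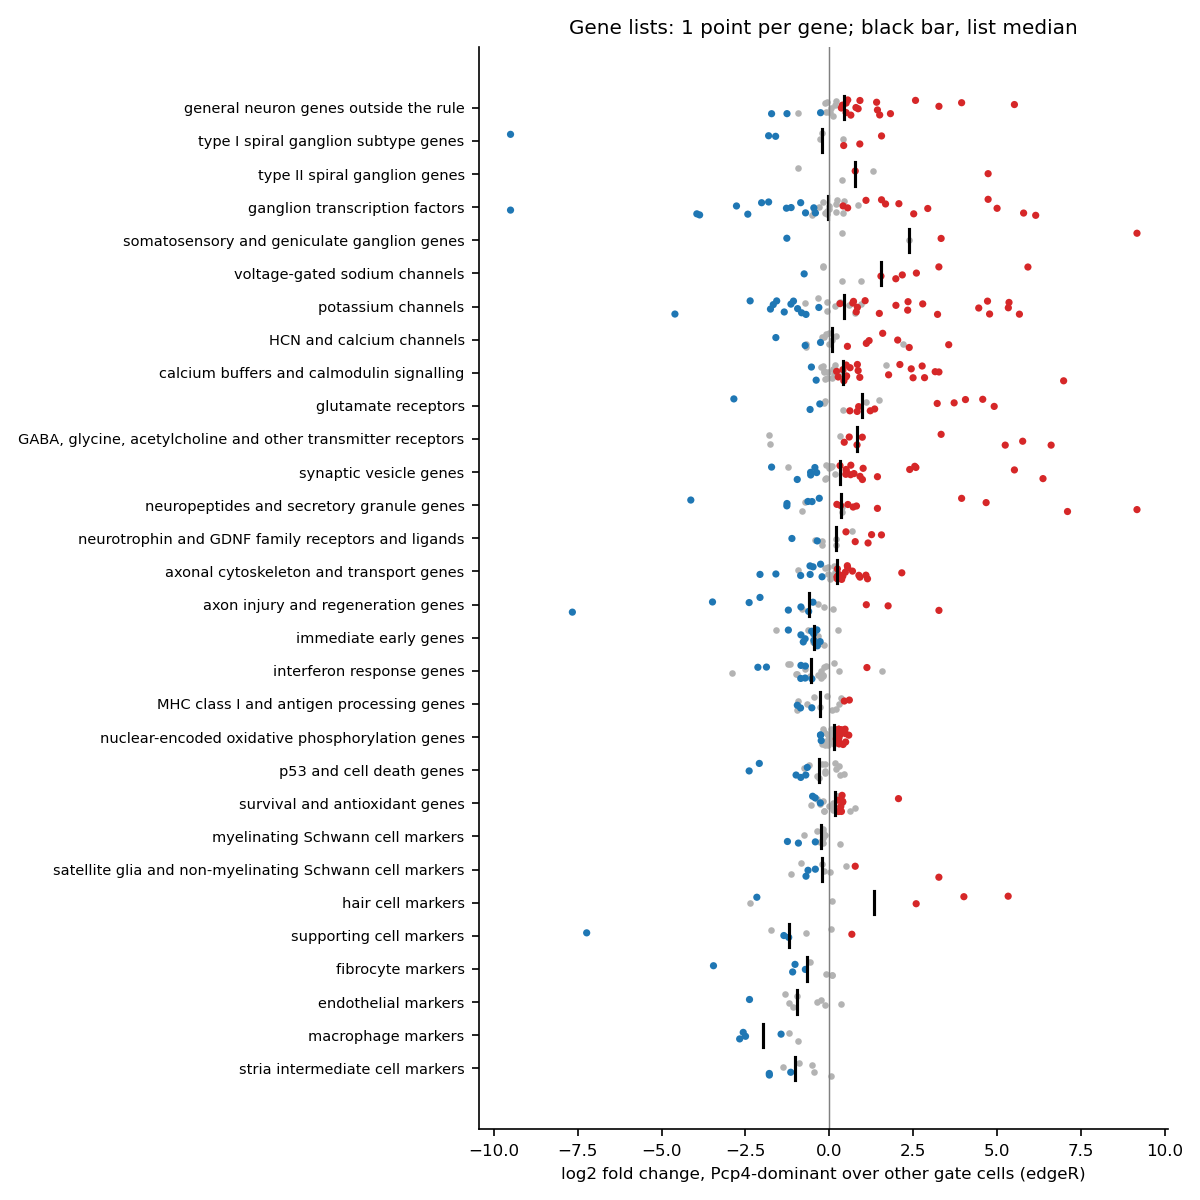
Fitted log2 fold change of Pcp4-dominant over other gate cells (edgeR), 1 point per tested gene of each list with at least 5 tested genes, with calls in red (higher) and blue (lower), other genes in grey and the list median as a black bar. The bars lie at 0.42 for calcium and calmodulin genes and at -0.44 for immediate early genes; Rxrg, Ecel1 and Epyc, with 0 UMIs in Pcp4-dominant cells, are drawn at fitted values that depend on the prior count.

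The Pcp4-dominant cells varied among themselves. The 223 cells of the main cluster were divided again into 6 sub-clusters, each with cells of both libraries. These sub-clusters were made from the same genes, so their leading genes are a description with no test. In sub-cluster 3 (7 and 34 cells), Calb1 had 433 and 425 CPM against 0 and 1.46 in the other sub-clusters, and Calb2 had 927 and 1079 CPM, although it was seen in 11 of 41 cells. Car2, a carbonic anhydrase, was seen in 35 of those 41 cells (806 and 433 CPM against 48.9 and 42.3), and Slc17a7, Rasgrp2 and Nefh were also higher there. Tac1 was low there, at 0 and 86.5 CPM.

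Sub-cluster 1 (14 and 44 cells) carried Fxyd7 at 662 and 635 CPM against 60.7 and 54.6, Rprm at 355 and 250 against 40.5 and 31.9, and Pcp4l1 at 520 and 385 against 62.7 and 41.9. Tac1 was seen in 56 of its 58 cells (1797 and 1362 CPM). Hemoglobin RNA was higher there as well, Hbb-bs at 331 and 2146 CPM against 62.7 and 69.5, in 18 of the 58 cells, and its part in the grouping was not tested. Sub-cluster 2 (8 and 38 cells) had the least Tac1 apart from sub-cluster 3 (164 and 196 CPM), Pcp4 at 1945 and 2510 CPM, and high Kcnb2 (944 and 697 CPM) and Tcap, which encodes the sarcomere protein telethonin (542 and 447 CPM against 81.2 and 134).

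Lypd1 was seen in nearly every cell of sub-clusters 0, 4 and 5 (45 of 46, 20 of 20 and 12 of 12) and in 17 of the 41 cells of sub-cluster 3, where it stood at 3588 and 1223 CPM. It stood at 2479 and 2780 CPM in sub-cluster 0 (10 and 36 cells), which also had Vip in 18 of 46 cells. In sub-cluster 4 (6 and 14 cells) Lypd1 stood at 5260 and 5075 CPM. Tac1 stood there at 2424 and 1181 CPM, and Vip was seen in 5 of 20 cells. Vip stood at 104 and 106 CPM in sub-cluster 0 and at 185 and 83.0 CPM in sub-cluster 4. In sub-cluster 5 (2 and 10 cells) Lypd1 stood at 4044 and 3630 CPM. Sub-cluster 5 had the highest Gap43, 231 and 135 CPM against 47.1 and 18.6, in 9 of 12 cells. Isl1 was not even either: over both libraries it reached 101 CPM in sub-cluster 1, 67.6 in sub-cluster 3 and 62.4 in sub-cluster 2, but 5.60 in sub-cluster 4.

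**Figure D4:**
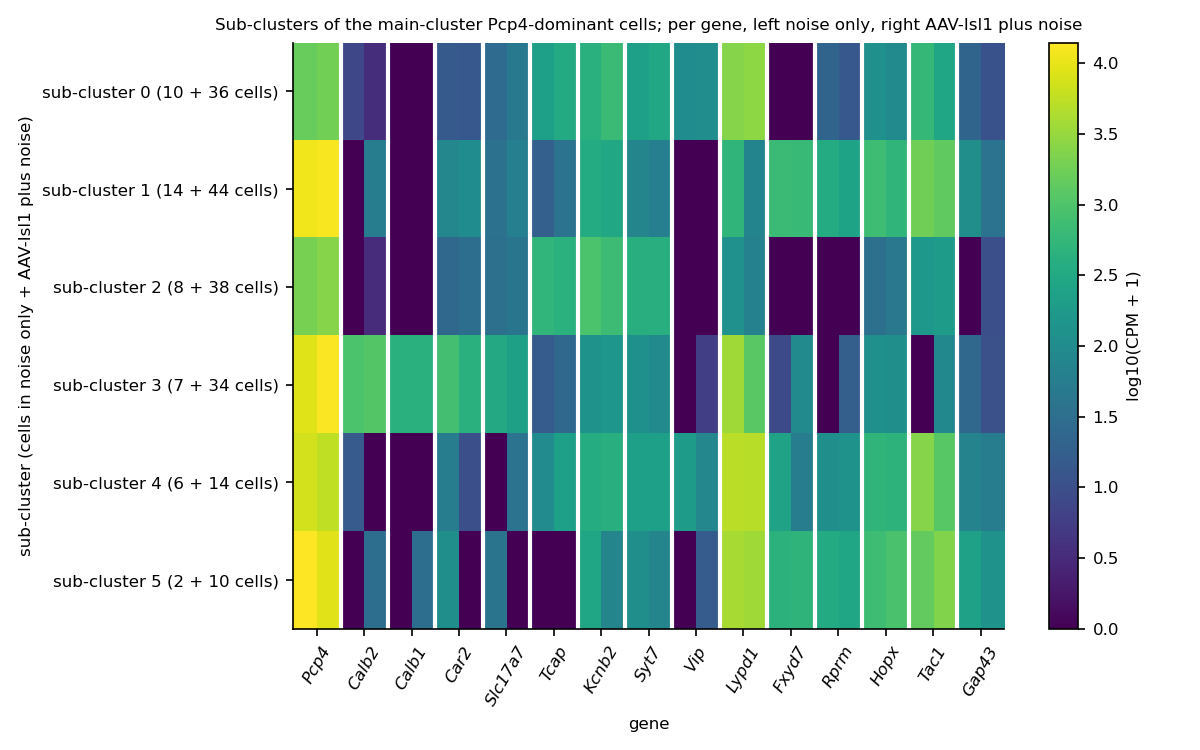
Level of 15 genes as log10(CPM + 1) in the 6 sub-clusters of the 223 main-cluster Pcp4-dominant cells, with the noise-only value in the left and the AAV-Isl1 plus noise value in the right column of each gene. Calb1 and Car2 are brightest in sub-cluster 3, Fxyd7 in sub-clusters 1 and 5, and Tcap in sub-cluster 2, in both libraries.

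Pcp4-dominant cells were last compared between the libraries, to see whether ears given AAV-Isl1 differed from untreated ears. With 1 library per group no test was possible, and ratios of AAV-Isl1 over noise only carry exact conditional binomial 95% intervals for counting error. Isl1 itself did not differ beyond counting error: 76.8 CPM (58 UMIs) in noise only and 70.0 CPM (136 UMIs) in AAV-Isl1, a ratio of 0.911 (0.665 to 1.26). In the main-cluster cells alone it was 57.3 and 58.8 CPM, a ratio of 1.03 (0.702 to 1.53). Isl1 was seen in 29 of 59 and 82 of 206 cells. Outside the gate Isl1 was at 11.7 and 57.7 CPM. The labels do not say whether vector RNA is counted as Isl1.

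Of 6874 genes with at least 50 UMIs, 81 (1.18%) differed at least 2-fold, 55 higher (0.8%) and 26 lower (0.378%) in AAV-Isl1. The counting interval excluded 1 for 280 genes in the higher (4.07%) and 278 in the lower direction (4.04%). The largest named ratios above 1 were those of Usp10, a deubiquitinase, with 33.1 against 70.0 CPM (2.11, 1.37 to 3.38), Leng8 (1.86), the ubiquitin ligase gene Herc3 (1.78), the anaphase promoting complex gene Anapc2 (1.77) and Bc1. Bc1, a non-coding RNA of neuronal dendrites, had 436 against 758 CPM, a ratio of 1.74 (1.54 to 1.97), and rose by a like ratio of 1.58 (1.48 to 1.68) in the other gate cells. Usp10 did not, with a ratio of 0.970 (0.848 to 1.11) there, and its log2 ratio turned to -0.06 in thinned cells. Ube3b, Capza1, Wdr37, Hax1 and Ogdhl had ratios between 1.65 and 1.74, of which Hax1 turned to a log2 ratio of -0.80 in thinned cells.

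The lowest ratios rested on few cells. Ocm, the hair cell buffer oncomodulin, had 60 UMIs in noise only and 1 in AAV-Isl1, and 56 of the 60 lay in 1 cell. Myl1, a muscle myosin light chain, had 43 and 9 UMIs, with 19 in 1 cell. The others were spread over cells. Igsf21, an adhesion protein of synapses, had 53 against 21.1 CPM (0.398, 0.251 to 0.632), seen in 39.0% and 17.0% of cells, and 46.7 against 22.4 CPM in the main-cluster cells. Gap43 had 50.3 against 25.2 CPM (0.501, 0.321 to 0.787), seen in 33.9% and 17.0% of cells, and 54.3 against 23 CPM in the main-cluster cells (0.423, 0.264 to 0.681). Its ratio in other gate cells was 1.15 (0.685 to 1.96), and its log2 ratio turned to 0.53 in Pcp4-dominant cells thinned to 1000 UMIs. Tmem64, Casd1, Trnt1, Tgfb2, Rac3 and Mturn had ratios between 0.512 and 0.579, of which Tgfb2 turned to a log2 ratio of 0.20 in thinned cells. The larger depth per noise-only cell (a median of 12747 against 9477 UMIs) moves with the shares of cells, and its part was not tested.

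Several lists had medians near that of all genes. The median log2 ratio was -0.04 for general neuron genes, 0.00 for potassium channels and 0.03 for synaptic vesicle genes, against 0.00 over all genes. Of 52 oxidative phosphorylation genes, 46 had ratios above 1 (median 0.10), with 20 counting intervals above 1 and 1 below. Among the 6874 genes with at least 50 UMIs, 4.07% of intervals lay above 1 and 4.04% below. The 52 genes were abundant, summing to 68220 and 73196 CPM, and at such counts small ratios can exclude 1. Of 17 immediate early genes with at least 20 UMIs, 15 had ratios above 1 (median 0.35). Junb had 98.0 against 147 CPM (1.5, 1.16 to 1.97) and Zfp36 23.8 against 53.5 CPM (2.24, 1.35 to 3.94). The median was 0.16 in main-cluster cells. Of 9 MHC class I genes 8 were above 1 (median 0.36), with H2-D1 at 11.9 against 36.5 CPM. Of 14 interferon response genes 10 were above 1 (median 0.25), but 0 of their counting intervals excluded 1. Outside the gate H2-D1 stood at 395 and 622 CPM, and the part of free RNA in these values was not tested.

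**Figure D5:**
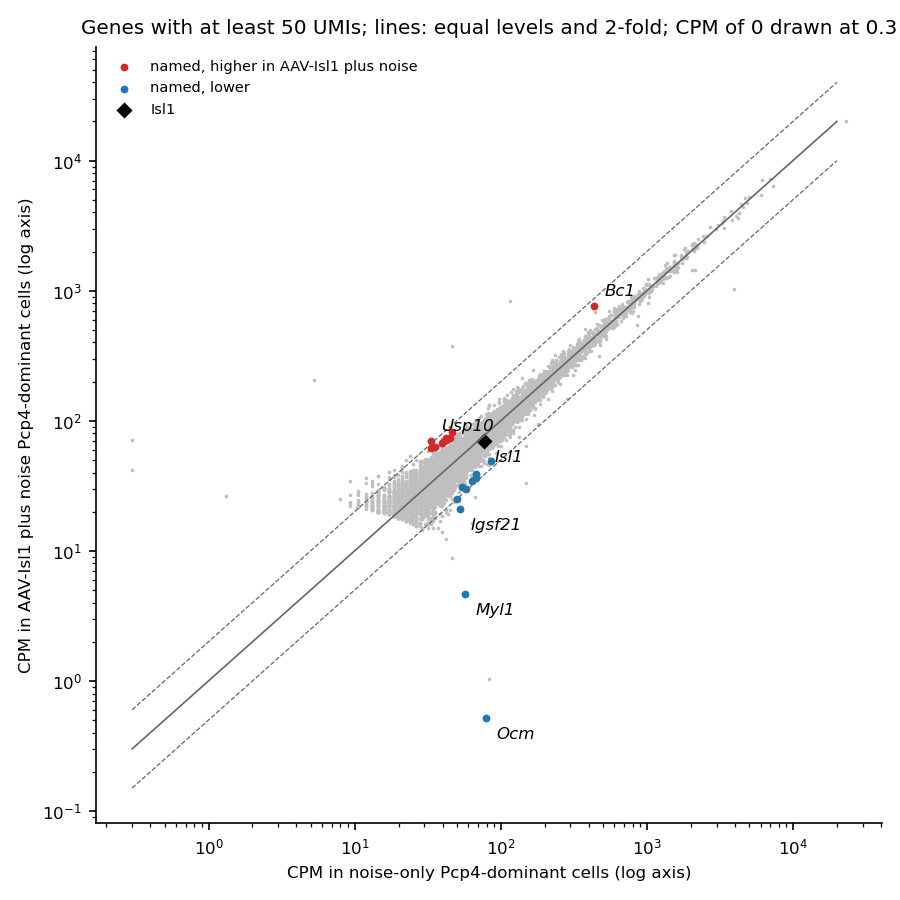
Each point is a gene with at least 50 UMIs in Pcp4-dominant cells, with its noise-only CPM on the horizontal and its AAV-Isl1 plus noise CPM on the vertical log axis, a solid line for equal levels and dashed lines for 2-fold. Isl1 (black) lies at 76.8 and 70.0 CPM near the solid line, while Ocm and Myl1 lie far below it.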

How the data were processed

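Single-cell libraries were made, per the labels' protocols, by droplet capture with the 10x 3' kit, version 3.1, from about 1600 cells each for a target of 1000. The authors deposited raw UMI counts per gene and barcode (32285 genes), with Cell Ranger 5.0 (5.0.1 in the matrix header), STAR and GRCm38 per the submitters' processing notes. Counts come from transcript 3' ends. Filtered cells held 36863540 UMIs in the noise-only and 38492860 UMIs in the AAV-Isl1 library, and Pcp4-dominant cells 755243 and 1943861.

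The members and all lists and rules were chosen with earlier results of these data known. Class sums were tested with edgeR 4.0.16 (filterByExpr, TMM, library block) in R 4.3.3, with DESeq2 1.42.0 as an alternative. On simulated sums of 12316 genes for this comparison, edgeR recovered 78% of genes changed by a log2 of 1, 100% at 2, 40% at -1 and 90% at -2 (50 each), with 1 false call. The simulated sums were independent, with 1 fixed spread for all genes and no mixed cells or free RNA. Their false call count therefore does not carry over to the calls in the real data. Named genes had edgeR adjusted p under 0.05, at least 50 UMIs, 1 direction in both libraries with both counting intervals excluding 1, and in the higher class of both libraries at least 50 CPM and at least the level outside the gate. The 12 highest and 12 lowest fold changes were picked (1 of the highest, and some list genes, are not reported here), and for the libraries the 10 highest and 10 lowest ratios with at least 50 UMIs, an interval excluding 1, and in the higher library at least 50 CPM and at least the level outside the gate. List genes were named by UMIs or, as examples of a call or a contrast, after their values were seen. Not eligible were genes of the rule, gene models without a name, and genes of mitochondria, ribosomal proteins, hemoglobin, antibodies or T cell receptors. Clusters used scanpy 1.11.5 (2000 variable genes, 30 components, 15 neighbours, Leiden resolution 0.8; sub-clusters 1000 genes and 15 components). Doublets were kept. Scrublet's automatic threshold marked 0 cells in both libraries, so an alternative leaves out cells above a score of 0.195, which marks 6% of noise-only cells. Coordinates are from GENCODE vM21 and promoters from RefSeq. Of the 12 named higher genes 8 had a promoter entry. Genes whose reads could be shared with a close copy were not separated further.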

Additional observations from a re-analysis of the deposited data

Results flagged for a closer look

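In 4 genes that the text examined, Pcp4-dominant cells were above other gate cells in 1 library and below them in the other, with both counting intervals excluding 1. These differences between the libraries were not tested. Car3, a muscle carbonic anhydrase, had 46.3 against 16.6 CPM in noise only (ratio 2.79) and 8.75 against 41.8 in AAV-Isl1 (ratio 0.209), and 33 of its 35 noise-only UMIs lay in 1 cell. Myl1 had 56.9 against 29.6 CPM (1.92) and 4.63 against 37.2 (0.124), and 19 of its 43 noise-only UMIs lay in 1 cell. Ptgds, a prostaglandin synthase abundant outside the gate (22231 and 32104 CPM), had 3968 against 1299 CPM (3.05) and 1026 against 3151 (0.326), and 2422 of its 2997 noise-only UMIs lay in 1 cell. Usp10 had 33.1 against 51.2 CPM (0.646) and 70.0 against 49.7 (1.41).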

How the results depend on the processing

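No paired analysis was possible because every group is a single library of 5 pooled ears. All 24 genes picked against other gate cells kept their direction and their call in every alternative that could fit them (23 in thinned cells). Without the library block, edgeR called 2484 genes, 2367 of them among the 2586 calls. DESeq2 gave 639 higher and 277 lower, and cells thinned to 1000 UMIs gave 259 and 212 of 7188 genes tested. The other alternatives gave 2149 to 2716 calls. Thinning also gave 10.3% as the AAV-Isl1 share, medians of 0.20 for potassium channels and 0.18 for calcium genes (0.21 and 0.21 against equal cells alone), and 16 higher and 5 lower genes between the libraries, where a minimum of 20 UMIs gave 298 and 113. Of the 2586 calls, 1966 could be fitted in thinned cells, where 453 were called again in the same direction and 113 had the opposite sign. Opposite signs were seen for 43 calls without clusters led by other cell types and 41 against equal cells alone. Among the genes and list medians followed through the alternatives, Calb1 reversed with the wider margin of Pcp4 (-0.035) and Lypd1 against equal cells (-0.96). The immediate early gene median reversed without clusters led by other cell types (0.37), a setting that also left out most other gate cells. Usp10 (-0.060), Hax1 (-0.80), Gap43 (0.53) and Tgfb2 (0.20) reversed in thinned cells. S100a10 (0.06) and Pcdh20 (0.46) also turned against equal cells alone. The interferon median between the libraries was 0.73 without doublets, 0.039 with the wider margin and -0.0089 with list genes from 1 UMI, and the MHC class I median was 0.56 without doublets. The cause was not tested.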

Other observations

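Among the genes outside the lists, the 2-fold differences between the libraries held RNAs of other cells that were abundant outside the gate. Hbb-bs, a hemoglobin gene, had 115 CPM in noise-only and 830 CPM in AAV-Isl1 Pcp4-dominant cells, beside 5997 and 16162 CPM outside the gate. Igkc, an immunoglobulin chain, had 0 and 41.7 CPM, beside 74.6 and 2642 CPM outside the gate. Crhbp, which encodes a corticotropin releasing hormone binding protein, had 83.4 and 1.03 CPM, and within the main cluster its UMIs lay in 1 cell. These genes were chosen after their values were seen.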
